A study of Ovis aries with 6 samples.

Results

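FOS, EGR1, ZFP36 and MYC are immediate early genes, and their transcripts were followed here in sheep skin that bears wool and skin that does not. They were read by the 9 non-control probes whose design accession is a sheep RefSeq mRNA of one of these genes, of 15008 probes on the array. FOS had 3 probes, and EGR1, ZFP36 and MYC had 2 each. Every probe was kept apart. Full-thickness skin, about a square centimetre per sample, was taken under local anaesthesia from 3 Aohan fine wool sheep of 12 months, 1 ram and 2 ewes with the same father, kept in pens. The wool-bearing body side and the groin, which bears no wool, gave 3 samples each, 1 per animal. The labels name no modified allele and no test agent, and the contrast the labels give between the groups is the body site. Each sample's total RNA was read with Cy3 on its own Agilent array. The title of the series puts the question as which genes go with wool in anagen, the growth phase of the follicle.

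Immediate early genes are transcribed within minutes of a growth factor, a cytokine or a mechanical or chemical stress, before any new protein is made. FOS is a leucine zipper protein that pairs with JUN proteins to form the transcription factor AP-1. EGR1 is a zinc finger transcription factor. MYC pairs with MAX and drives genes of growth and division. ZFP36, also known as tristetraprolin, acts after transcription: it binds AU-rich elements in messenger RNAs, among them that of TNF, and speeds their decay. In skin such genes are known from wounding and from the growth of keratinocytes.

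The 4 genes did not move together between the sites, and for ZFP36 not even the probes of the same gene did. All 3 FOS probes were lower on the body side, by 6.38-fold to 8.54-fold on floored values. Only 1 of the 3 body side arrays read FOS well above background. Each body side value below the lowest signal that was well above background on its array was therefore raised to that signal (floored). Such floored folds hold for the processed signals and are no lower limits. With normexp, another background correction, the FOS differences were smaller, from -1.68 to -1.15 (log2). EGR1 was 2.63-fold higher on the body side by its 1 measurable probe. One ZFP36 probe was 2.28-fold higher and the other 7.22-fold lower on floored values, and MYC was lower by 1 of its 2 probes. Of the 8 probes that could be tested, 2 rose (25%), 5 fell (62.5%) and 1 did not pass. The FOS probes and the lower ZFP36 probe entered the test only through the groin, where they were high, so that their falls are no independent count. Over all 13278 tested probes of the array 69.9% were called, 37.0% higher and 32.8% lower, so that a call in itself marks out none of these genes (limma, adjusted p under 0.05).

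The arrays of the sites differed as a whole, which bears on every value below. Groin arrays were brighter, with a 75th percentile of signal 2.98 times that of the body side arrays (two-sided exact permutation test, p = 0.1, which is the least possible for 3 against 3). The groin arrays came from 1 scan and the body side arrays from another, so that site and scan cannot be told apart. Levels are therefore given on a log2 scale relative to the 75th percentile of each array, which has a level of 0. Between 10730 and 14053 probes per array were well above background, the scanner software's own mark of detection. The skin label could be checked on 8 hair shaft and sheath genes, all higher on the body side, and no epidermal marker on the fixed list had a named probe. In whole skin, fewer cells of a type and less RNA per cell cannot be told apart.

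FOS was read at a clear level in the groin and near the background on the body side. Probe A_70_P001561 had processed signals of 379, 670 and 713 on groin arrays 1 to 3 and of 34.0, 35.1 and 14.0 on body side arrays 1 to 3. Probe A_70_P016316 had 512, 699 and 899 in the groin and 6.30, 40.1 and 9.42 on the body side. Probe A_70_P016317 had 487, 683 and 826 in the groin and 18.8, 28.8 and 16.9 on the body side. Every groin value lay far above every body side value, and on the body side array 2 alone read the probes well above background. Spots of negative control probes had a 95th percentile between 5.27 and 16.5 over the 6 arrays, and body side arrays 1 and 3 read FOS between 6.30 and 34.0. The scanner software's own error for A_70_P016316 on body side array 1 was 6.21, as large as the signal.

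On the scaled log2 values as measured, background readings included, the 3 FOS probes gave differences of -2.89 ± 0.34 (A_70_P001561, adjusted p = 1.85e-04), -4.11 ± 0.41 (A_70_P016316, 8.68e-05) and -3.38 ± 0.19 (A_70_P016317, 9.43e-06; SE, limma). Their groin means were -2.85 ± 0.37, -2.57 ± 0.28 and -2.65 ± 0.25 (SD, n = 3). Their body side means were -5.74 ± 0.67, -6.68 ± 0.91 and -6.03 ± 0.14 (SD, n = 3). The groups did not overlap for any of the 3. Over the 8 tested members they did not overlap for 5 probes with the body side lower and 2 with it higher; over all tested probes this held for 75.2%, of which 35.4% lower and 39.8% higher. All 3 probes stayed past the threshold in each of the 9 leave-outs of an animal number or an array. They entered the test only through the groin, where they were high. Neither the p-values nor the leave-outs are thus independent support for the fall. Their measured size rests on signals near background: on floored values the probes were 6.38-fold, 8.07-fold and 8.54-fold lower on the processed signals. The reading of A_70_P001561 on body side array 1, 34.0, lay above the floor and was not raised, though not well above background. With normexp background correction the differences were -1.15, -1.68 and -1.53, so that the floored folds are no lower limits.

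**Figure D1:**
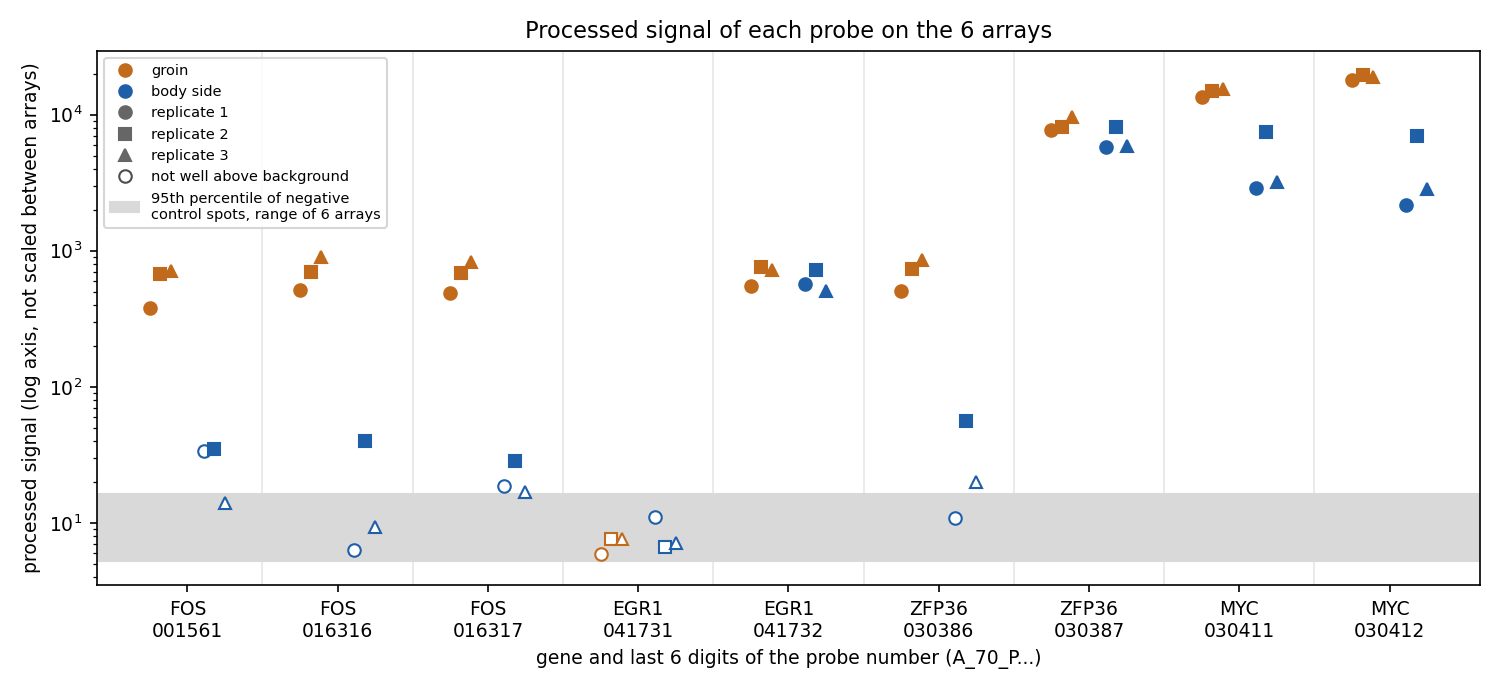
Processed signal of the 9 probes on each array, on a log axis and without scaling between arrays, with groin arrays in orange, body side arrays in blue and open symbols where a spot was not well above background. The grey band spans the 95th percentile of the negative control spots over the 6 arrays, from 5.27 to 16.5; the FOS probes and A_70_P030386 of ZFP36 come down to it on the body side, and A_70_P041731 of EGR1 lies in it on all arrays.

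EGR1 was higher on the body side by the scaled values, but its signal itself was alike at both sites. Probe A_70_P041732 read 553, 754 and 719 on groin arrays 1 to 3 and 566, 723 and 506 on body side arrays 1 to 3, well above background on all 6. These signals overlap between the sites. After scaling the levels were -2.73, -2.47 and -2.61 in the groin and -0.96, -1.50 and -1.16 on the body side, which do not overlap. The difference was 1.40 ± 0.19 SE (limma adjusted p = 3.70e-04), with all 3 same-numbered pairs higher. It was larger, between 1.75 and 1.85, with median centring, quantile normalization, cyclic loess and the deposited log2 values. Without scaling between arrays it was -0.18 and not past the threshold (adjusted p = 0.594). The rise is thus a relative one, of a signal that stayed level on arrays where most probes were dimmer.

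The second EGR1 probe gave no reading. A_70_P041731 had signals from 5.98 to 7.69 on the groin arrays and from 6.67 to 11.1 on the body side arrays and was well above background on none of the 6. It was not tested, and no fold is given. Both probes carry the same accession, so that the call on EGR1 rests on 1 probe.

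ZFP36 gave a pair of calls in opposite directions. Probe A_70_P030387 read 7759, 8101 and 9632 on groin arrays 1 to 3 and 5765, 8046 and 5870 on body side arrays 1 to 3. Probe A_70_P030386 read 508, 738 and 860 in the groin and 11.0, 55.9 and 20.1 on the body side. The first kept most of its signal on the body side, whereas the second dropped to near the background, with only body side array 2 well above it.

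In scaled values A_70_P030387 rose by 1.19 ± 0.18 SE (adjusted p = 5.66e-04), from 1.06 ± 0.09 to 2.25 ± 0.24 (SD, n = 3). A_70_P030386 differed by -3.32 ± 0.34 SE (limma adjusted p = 1.03e-04), from -2.57 ± 0.26 to -5.89 ± 0.73 (SD, n = 3). Neither overlapped between the sites, and both passed in each of the 9 leave-outs. A_70_P030386 entered the test only through the groin, so that its p-value and leave-outs are no independent support for its fall. The log2 ratio of A_70_P030386 to A_70_P030387 within an array cannot change with a constant scaling of the array. On floored values it was lower on the body side by 16.5-fold. As measured, the sites did not overlap (exact permutation test, p = 0.1, the smallest possible). Both this fold and the fall of A_70_P030386 itself, 7.22-fold on floored values after scaling, depend on the background step and are no lower limits. Body side arrays 1 and 3 did not read this probe well above background. With normexp A_70_P030386 was at -1.50, a smaller fall than on floored values but still past the threshold, and A_70_P030387 was at 1.30. The rise of A_70_P030387 was 0.58 with cyclic loess and 0.63 with quantile normalization, still past the threshold, and -0.38 and not past it without scaling (adjusted p = 0.245). The mean of the probes of ZFP36 was -1.06 and past the threshold, so that the direction reported for the gene depends on the probe.

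MYC had strong signals at both sites. Probe A_70_P030411 read 13472, 14874 and 15306 on groin arrays 1 to 3 and 2892, 7395 and 3220 on body side arrays 1 to 3. Probe A_70_P030412 read 18026, 19490 and 18914 in the groin and 2150 and 6985 on body side arrays 1 and 2. Its spot on body side array 3, at 2863, was flagged as an outlier by the scanner software and left out. Body side array 2, the brightest of the body side arrays, gave the highest body side signal with both probes.

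Scaling took up most of that drop. The levels of A_70_P030411 were 1.87, 1.83 and 1.80 in the groin and 1.39, 1.85 and 1.51 on the body side, which overlap through body side array 2. Its difference of -0.25 ± 0.18 SE did not pass (limma adjusted p = 0.233), with a 95% interval from -0.66 to 0.16. A_70_P030412 had levels of 2.29, 2.22 and 2.10 in the groin and 0.96 and 1.77 on the body side, without overlap. It fell by 0.84 ± 0.27 SE (limma adjusted p = 0.0239), and with the flagged spot kept it was at -0.87 (adjusted p = 0.00816).

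The call on A_70_P030412 ended without replicate 3 and without any single groin array (limma adjusted p from 0.0508 to 0.0688). Leaving out body side replicate 3 removed nothing, since its spot was already out. Other leave-outs kept 1 body side value. They gave -0.39 and -1.24 without replicates 1 and 2, and -0.44 and -1.24 without those body side arrays alone. With median centring the difference was -0.38, not past the threshold. Normexp left it at -0.49 (adjusted p = 0.0497). It was larger with quantile normalization (-1.43), cyclic loess (-1.53) and the deposited values (-1.51), and the same 3 settings brought A_70_P030411 past the threshold, at -0.86, -0.88 and -0.90. Without body side replicate 2 A_70_P030411 also passed, at -0.39 (adjusted p = 0.0453). With median centring its sign turned, to 0.21. MYC was thus lower on the body side under most settings, but whether the difference passes depends on the probe, the scaling and single arrays.

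**Figure D2:**
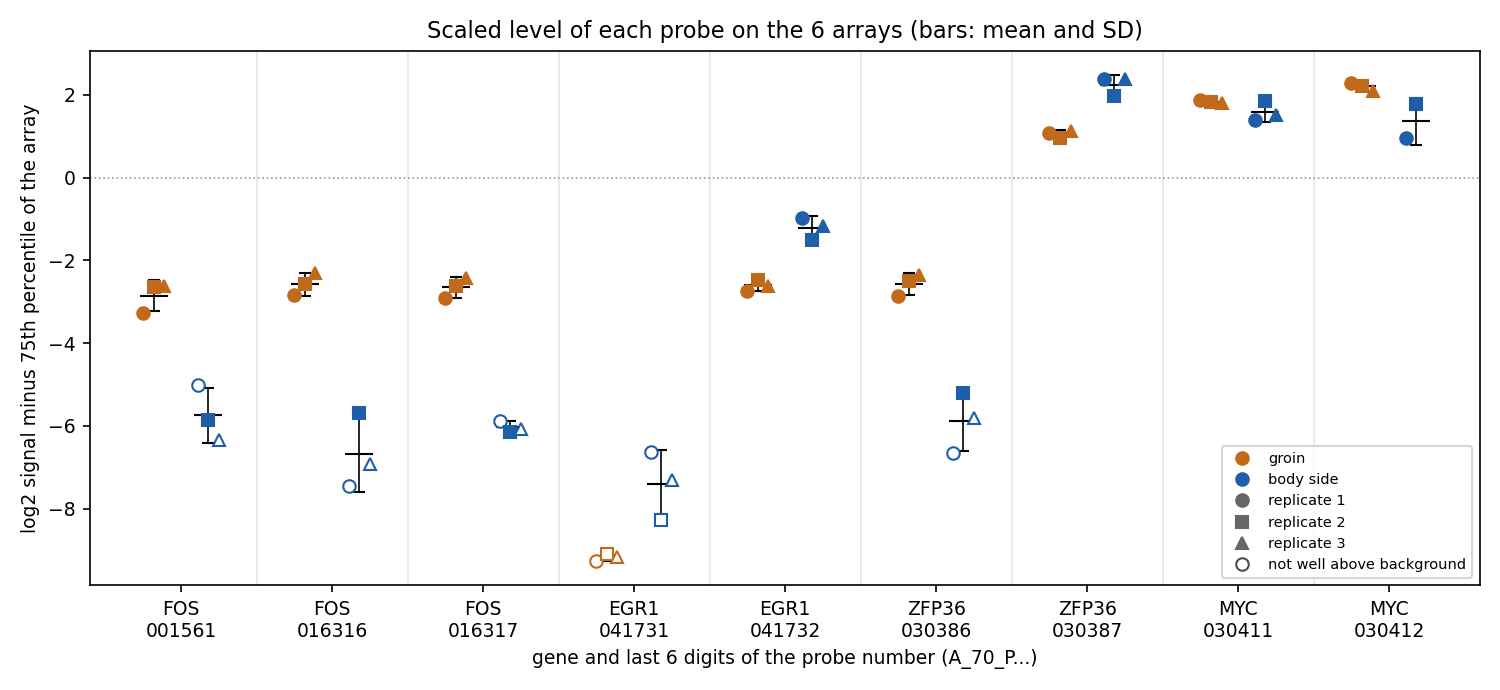
Scaled log2 level of each probe on the 6 arrays, where 0 is an array's 75th percentile, with the mean and SD of each site; open symbols mark spots not well above background. The sites are apart for all tested probes except A_70_P030411 of MYC, with the body side lower for 5 and higher for 2 (A_70_P041732 of EGR1 and A_70_P030387 of ZFP36).

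Site differences on these arrays moved with brightness, and the members lie at different places on that scale. The tested probes were cut into 10 equal bins by mean level. In the bin that holds A_70_P030387 of ZFP36 and both MYC probes, the second brightest, the median difference was 0.68. ZFP36 at 1.19 lay above 73.6% of the probes of that bin, against 83.9% of all tested probes. Both MYC probes lay below the median of the bin, and 17.7% and 7.68% of its probes were lower than A_70_P030411 and A_70_P030412. EGR1 lay in a bin with a median of -0.40, above 94.3% of its probes. A_70_P001561 and A_70_P016317 of FOS and A_70_P030386 of ZFP36 shared a bin with a median of -0.11. A_70_P016316 of FOS lay in a bin with a median of 0.067. No rank is given for the FOS probes and A_70_P030386, whose body side readings were mostly near background. Brightness was measured on the same arrays as the differences, and its part in them was not tested.

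**Figure D3:**
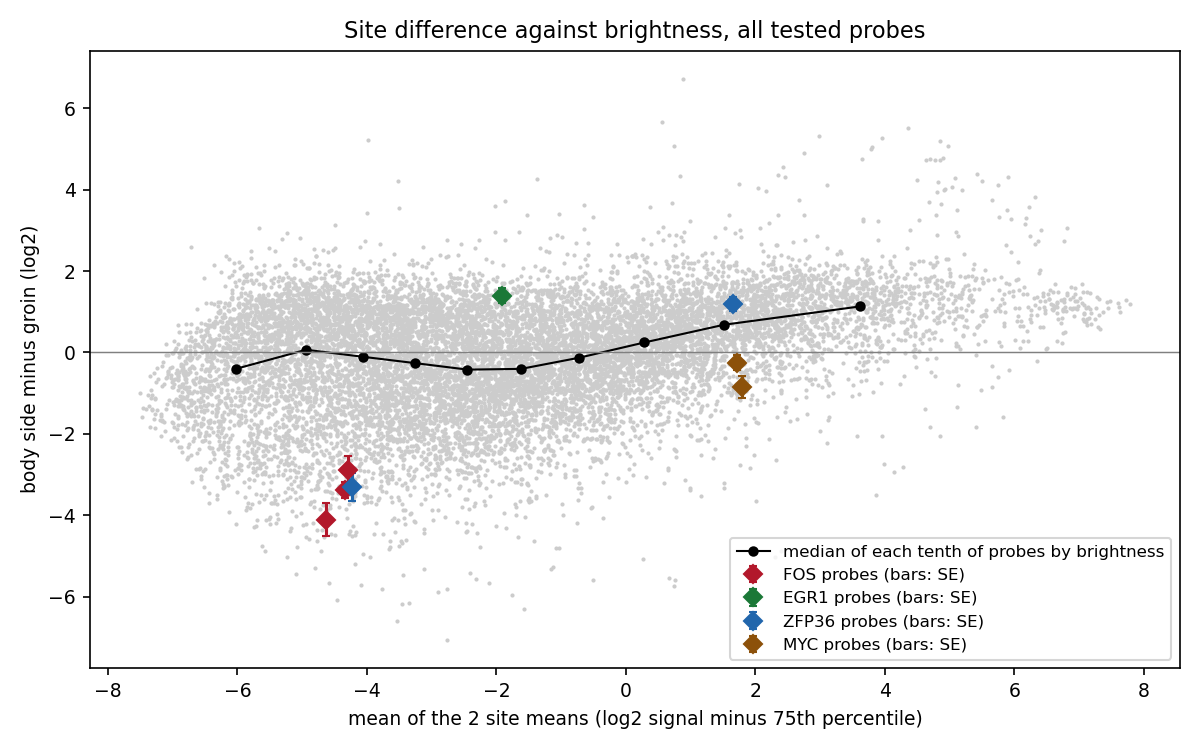
Body side minus groin (log2) of all 13278 tested probes against their mean level, in grey, with the median of each of 10 brightness bins in black and the 8 tested member probes as diamonds with their SE. FOS and 1 ZFP36 probe are drawn as measured, with body side readings mostly near background, and lie below the medians of their bins. EGR1 lies above the median of its bin, the other ZFP36 probe above the median of 0.68 in its bin, and MYC below that median.

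How the members moved against one another can be read within each array, without scaling between arrays. For 11 pairs of probes, 5 within a gene and 6 between genes (each gene by its probe with the highest mean), the log2 ratio was compared between the sites. In 7 pairs the sites did not overlap, and these had p = 0.1, the smallest that the exact permutation test allows (two-sided, 0.157 after adjustment over the 11). The ratio of FOS (A_70_P001561) was lower on the body side, on floored values by 16.8-fold against EGR1 and 14.6-fold against ZFP36. These folds hold for the processed signals and are no lower limits, because body side arrays 1 and 3 did not read FOS well above background. With normexp the site differences were -1.15 for FOS, 1.46 for EGR1 and 1.30 for ZFP36 (A_70_P030387). Against MYC the ratio of FOS was 3.37-fold lower as measured, over body side arrays 1 and 2. No value was raised there, though array 1 did not read FOS well above background. EGR1 gained 2.21 and ZFP36 gained 1.97 against MYC. The MYC probe had only 2 body side arrays in these ratios, and A_70_P030411 gained 0.63 against it. The ratio of EGR1 to ZFP36 shifted by 0.21, and the sites overlapped (exact permutation test, p = 0.3). The ratios among the FOS probes also overlapped, with shifts between -0.72 and 1.21 that rest on readings near background, and with 3 arrays a site this test cannot pass 0.05, so that no stability can be read from it.

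The site difference of the 1 ram was set against that of the 2 ewes. The ram is a single animal, assumed to vary like the ewes, whose arrays and the spread shared over all probes give the error, so that it does not speak for rams. None of the 8 probes passed (limma interaction term, lowest adjusted p = 0.190), which does not show that the sexes are alike; over the array 0.113% of the probes passed. The largest term was that of A_70_P001561 of FOS, at 1.73 ± 0.44 SE, with site differences of -1.74 in the ram and -3.47 in the ewes. The other FOS probes had terms of -0.75 and 0.64, and all 3 rest on body side readings near background. Replicate 1 is the ram at both sites, whereas the labels leave unsaid if numbers 2 and 3 stand for one ewe each across sites.

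The members' calls under other scalings stand against a background that moves with the scaling. Of all tested probes 49.2% were called higher and 22.5% lower with normexp, and 49.8% and 22.8% with median centring. Quantile normalization gave 34.5% and 30.8%, cyclic loess 32.3% and 33.9%, and the deposited log2 values 34.4% and 31.4%. Without scaling 1.43% were called higher and 70.9% lower, so that a call of lower was there shared by most probes.

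**Figure D4:**
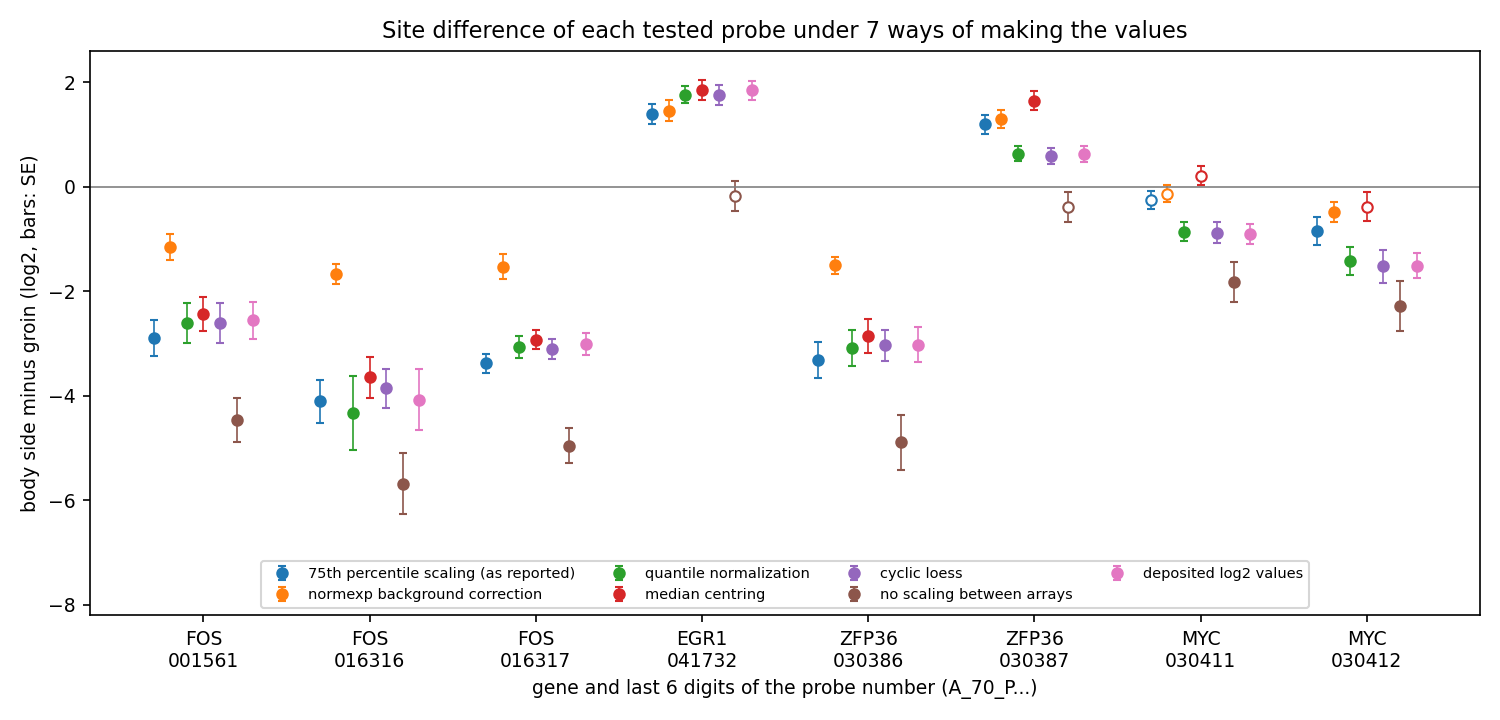
Body side minus groin (log2, with SE) of the 8 tested probes under 7 ways of making the values; open symbols did not pass the threshold. The FOS probes and A_70_P030386 of ZFP36 stay below 0 in all 7, EGR1 and A_70_P030387 of ZFP36 are above 0 in all but the unscaled signals (-0.18 and -0.38), and A_70_P030411 of MYC crosses 0 with median centring.

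Few other genes of the early response had a named probe. Of the 37 entries for AP-1 members and other early factors 4 were tested, of which 2 rose, 1 fell and 1 did not pass, with a median of 0.40. The median over the 442 named genes was 0.39, with 71.0% called, 45.5% higher and 25.6% lower. The same shares stand beside the counts of the lists below. No JUN, other FOS or other EGR gene was among them. ATF4, a factor of the integrated stress response, rose by 1.14 ± 0.16 SE, but quantile normalization put it at 0.14, where it did not pass. CREM, a cyclic AMP responsive regulator, fell by 1.34 ± 0.20, and its other probe also fell (-1.62). PTGS2, the inducible cyclooxygenase, rose by 1.19 ± 0.19 by one probe, while its other probe was called lower at -1.38 ± 0.51. NFKBIA, an inhibitor of NF-kappa B, was at -0.34 and did not pass.

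Among inputs of early genes, 5 of 31 entries were tested, of which 2 rose, 1 fell and 2 did not pass. MET, the receptor of hepatocyte growth factor, rose by 1.91 ± 0.22 SE (limma adjusted p = 1.59e-04). IGF1 rose by 0.66 ± 0.20, a call that ended in 4 leave-outs, among them without replicate 3 (0.56). FGF7, a growth factor for keratinocytes made by fibroblasts, fell by 2.46 ± 0.25. FGF2 and the brightest FGF10 probe did not pass, at 0.17 and -0.37, though the other 3 FGF10 probes were called lower. No kinase of the MAP kinase cascade and neither SRF nor ELK1 had a named probe.

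The list of transcripts with AU-rich elements, the class that ZFP36 binds, was the best covered, with 17 of 21 entries tested. Of these, 9 rose, 6 fell (FOS and MYC among them) and 2 did not pass, with a median of 0.76. Over the 442 named genes 45.5% were higher and 25.6% lower, with a median of 0.39. Without scaling between arrays, only CXCL8 (0.89) and TNF (0.03) of the rises stayed above 0. PTGS2, counted as a rise, had another probe called lower. The chemokine CXCL8 was higher by 2.47 ± 0.20 SE (limma adjusted p = 3.89e-05). TNF, the best known ZFP36 target, was higher by 1.60 ± 0.18 (limma adjusted p = 1.36e-04). IL1A, an epidermal interleukin, fell by 2.11 ± 0.23. VEGFA, the vascular growth factor, rose above background by the software's mark on none of the 3 body side arrays. On floored values of the scaled processed signals its groin level was 1.96-fold higher. This is no lower limit, since normexp put the probe at 0.15 and not past the threshold. The other VEGFA probe was called lower on the body side, at -2.86 ± 0.30 SE as measured. Members of the list thus moved both ways.

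MYC partners and common targets had 2 tested genes of 22 entries, of which 1 rose and none fell. CDK1, the mitotic kinase, rose by 1.56 ± 0.17 SE (limma adjusted p = 1.27e-04). CDK4 did not pass, at 0.26 ± 0.17. Of 17 stress response entries, CRYAB, a small heat shock protein, rose by 3.25 ± 0.21 and thioredoxin (TXN) by 0.85 ± 0.18, the latter below 0 with quantile normalization (-0.43). Neither of the other ZFP36 family genes had a named probe.

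**Figure D5:**
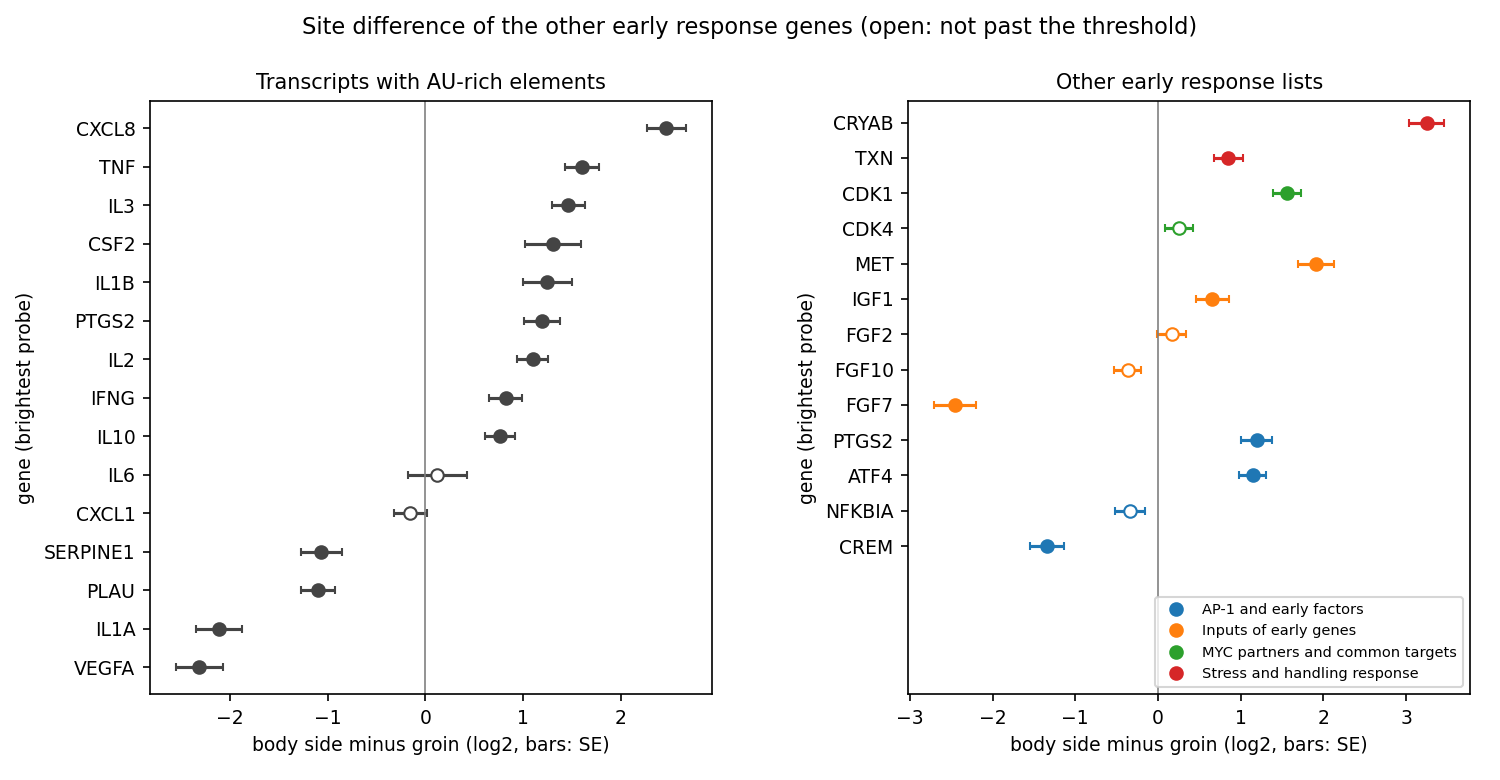
Body side minus groin (log2, with SE) of the other early response genes by their brightest probe, with the transcripts that hold AU-rich elements on the left and the other lists on the right; open symbols did not pass. Both panels hold genes on either side of 0, from FGF7 at -2.46 to CRYAB at 3.25; the point of VEGFA is its measured value, with no body side array well above background.

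Named genes with the profile most like each member were sought by the correlation of scaled values over the arrays, each gene by its brightest probe, among 438 genes. For FOS (A_70_P001561) these were VEGFA, HPCAL1 and LPL, with Pearson's r between 0.989 and 0.997 over 6 arrays. FOS and LPL were well above background on 1 of 3 body side arrays and VEGFA on none, so that their likeness there is partly one of background readings. For EGR1 they were GHRHR, PRP2 and SERPINA14 (0.997 to 0.998), and for ZFP36 (A_70_P030387) MET, CAPN2 and LOC443344 (0.995 to 0.996). For MYC (A_70_P030412) they were ATP6V0C, PSMB8 and DTNBP1 (0.989 to 0.999 over 5 arrays). The points share the arrays, the scaling and the contrast of the sites, and the values are a description.

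Markers of other skin cells were called too, but so were 71.0% of the named genes (45.5% higher and 25.6% lower). Both endothelial selectins, SELE and SELP, fell, and the mean log2 level of that list ran from -2.72 to -2.49 in the groin and from -3.79 to -3.58 on the body side. By the brightest probe, of 3 fibroblast genes 2 fell and 1 rose. Of 7 myeloid genes CXCL8, TNF and IL1B rose and TLR4 fell. CD14, ITGAM and TLR2 did not pass, but their other probes were called lower (-0.89, -3.02 and -1.74). Of 3 T cell genes 2 rose and 1 fell, as of 3 skeletal muscle genes. The adipocyte, mast cell and red blood cell lists each had 1 rise and 1 fall of 2 genes. The 1 melanocyte gene rose and the 1 smooth muscle gene did not pass. The part of these cells in the differences of FOS, EGR1, ZFP36 and MYC was not tested.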

How the data were processed

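The authors extracted spot intensity values from the scans with the Agilent software Feature Extraction (version 10.5.1.1 in the submitters' processing notes). Processed signals, as deposited, are intensity values with the array's background already removed. A deposited table of log2 values (medians of 8.31, r = 0.999 with quantile-normalized signals; its background step is not given in the sources used here) served as an alternative. Control spots and outlier-flagged spots (6 to 51 per array) were left out, repeated spots averaged and log2 signals scaled to each array's 75th percentile. A probe was tested if well above background on all 3 arrays of a site, with at least 2 values per site. Body side minus groin was fitted with limma 3.58.1 (R 4.3.3; lmFit, eBayes, Benjamini-Hochberg over 13278 probes, threshold 0.05). Replicates are separate animals, numbered by title; 3 arrays per site limit the precision. Symbols came from the RefSeq table of ARS-UI_Ramb_v3.0 (734 probes matched); the files name no build, so no coordinates are given, and sequences were not used here.

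All probes of the members are reported. From each list up to 4 called genes by smallest adjusted p, or else the 1 with the smallest p, are named, and genes beside these were chosen after their values were seen. One gene of the lists is not reported here. Members, lists and tests were chosen with earlier results of these data known. In a test on simulated data of 13278 probes, 79 of 100 changes of 2 (log2) and 34 of 100 changes of 1 were called, with 5 false calls. Few probes were changed there, whereas 69.9% were called in the data, and no difference in array brightness was simulated. The rates thus do not describe how often real differences on these arrays were found. Alternatives were normexp (offset 50), quantile, median, cyclic loess and no scaling, the deposited values, other filters, a variance trend, the replicate number as a block, leave-outs and, added after seeing the data, flagged spots kept.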

Additional observations from a re-analysis of the deposited data

How the results depend on the processing

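All 3 FOS probes and A_70_P030386 of ZFP36 kept their direction and call under every alternative that could give a value; the filter on all 6 arrays removed them and A_70_P030412 of MYC. EGR1 and A_70_P030387 of ZFP36 lost theirs only without scaling (-0.18 and -0.38) and, for ZFP36, with the mean of its probes (-1.06). For A_70_P030411 of MYC the values were -0.86 (quantile), 0.21 (median centring), -0.88 (cyclic loess), -1.83 (no scaling) and -0.90 (deposited values), and -0.39 to -0.14 in the leave-outs. For A_70_P030412 they were -0.38 (median centring) and -0.53 (mean of probes), and -1.24 to -0.39 in the leave-outs. In the ram's difference minus that of the ewes, never past the threshold, the sign turned with normexp for A_70_P016316 of FOS (0.61) and A_70_P030386 of ZFP36 (0.37), and for A_70_P030387 without scaling (-0.0665) and in the leave-outs (-0.0241 to 0.38). Leave-outs of ewe arrays kept the sign of the other 7 probes.

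Without scaling 190 probes were called higher and 9412 lower, and of the early response genes 1 and 15, against 15 and 6 in the scaled values; ATF4 (-0.43), PTGS2 (-0.38), IGF1 (-0.92), CDK1 (-0.010) and TXN (-0.72) were then below 0. TXN was also below 0 with quantile normalization (-0.43), cyclic loess (-0.44) and the deposited values (-0.44), and VEGFA was at 0.15 with normexp. Higher calls made up 53.0% of all calls, but 68.6% with normexp and 68.5% with median centring. The median of all tested probes shifted by 0.36 with normexp, 0.46 with median centring, -0.12 with cyclic loess and -1.57 without scaling. With the replicate number as a block, 4869 probes were called higher and 4342 lower, and no member changed its call; A_70_P030412 of MYC was at -0.89. Same-numbered arrays deviated together at correlations of 0.160, 0.0887 and -0.0875, and groin array 3 correlated best with body side array 2. With 3 arrays per site these values cannot decide on pairing. The main fit took the arrays as unpaired, although replicate 1 is the ram at both sites. FOS and A_70_P030386 of ZFP36 are limited by signal near background on the body side.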
